A study of Equus caballus with 12 samples.

Results

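In equine oocytes matured in vitro, the mRNAs of 26 genes of the mitochondrial ribosome and of the mitochondrial protein import machinery were followed in vitrified and fresh samples. The 26 genes are the rows of the deposited expression table whose Ensembl identifier is paired, in the gene lists that accompany the study, with a name starting with MRPL, MRPS, TIMM or TOMM, out of 11425 rows in all. They comprise 12 proteins of the large subunit of the mitochondrial ribosome, 9 proteins of its small subunit, 2 proteins of the translocases of the inner membrane (TIM) and 3 proteins of the translocase of the outer membrane (TOM). The family is larger than this, since a RefSeq gene table of the horse lists 100 symbols with these prefixes, of which 25 matched. Names could be given to 2569 rows only. The lists that hold the names are ordered by the study's fold changes and the copies used here are shortened at the end that holds the largest increases, so a gene with higher values in vitrified oocytes was less likely to receive a name. Shares of genes called, or higher or lower, are therefore given over the 2569 named genes as well as over all genes tested.

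Mitochondria hold a small genome of their own, and the few proteins it encodes are made inside the organelle by a ribosome whose RNA is mitochondrial and whose proteins, named MRPL for the large and MRPS for the small subunit, are encoded in the nucleus. These proteins, like nearly all other mitochondrial proteins, are made in the cytosol and enter through the TOM complex, after which the TIM complexes pass them into or across the inner membrane. The oocyte holds more mitochondria than most other cells and supplies them to the embryo, and its stored maternal mRNAs are translated and degraded during maturation while transcription is largely silent.

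The samples were in vitro matured oocytes of 3 kinds, with vitrification being a rapid cooling to a glass-like state in cryoprotectants. In the VIM group (VGV in the labels, n = 4) immature oocytes still surrounded by their corona radiata cells were vitrified, warmed, matured and then denuded. In the VMAT group (n = 3) oocytes were matured and denuded first, and vitrified and warmed afterwards. The fresh group (FR, n = 5) was matured and denuded without vitrification. In all 3 groups the polar body was assessed before the oocytes were stored, and all ovaries came from slaughtered mares. Each library was made from a pool of oocytes with a 3′ transcriptome kit that carries unique molecular identifiers, so 1 library describes a pool and p-values refer to variation between pools. In limma this variation is moderated, that is, partly borrowed from other genes of similar level. Its SEs and p-values therefore do not describe the spread of a gene's own pools alone. The stage at vitrification, the presence of corona radiata cells during it and the time from warming to storage differed together between VIM and VMAT. So did the maturation, which FR and VMAT oocytes underwent together and VIM oocytes after warming. These factors cannot be told apart. In such bulk samples, fewer cells of a type and less RNA per cell cannot be told apart either.

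The values are normalized counts, that is, reads divided by a factor for each library, and the whole reads behind them could be recovered for every value. Reads on genes ranged from 1636620 to 12166950 per library with a median of 2899468, and VMAT 2 stood apart, since the other 11 libraries reached at most 4715119. The precision differed accordingly: 3 reads, the limit that a count of 0 allows, corresponded to 0.376 normalized counts in VMAT 2 and 9.34 in VMAT 1, counting error only. The scaling factors, from 0.321 in VMAT 1 to 7.98 in VMAT 2, spread more widely than the totals. Against shares of reads, normalized counts therefore stand higher in VMAT 1 and lower in VMAT 2 than in the other libraries. Oocyte markers were present, though not all of them in every library. The 10 named markers of 16 listed summed to between 12657 and 20381 normalized counts in VIM, 13753 and 29205 in VMAT and 16766 and 21327 in FR, and limma and DESeq2 called 0 of the 10 in any comparison. These sums were carried largely by DPPA3 (4501 to 16505 over the 12 libraries) and BTG4 (3177 to 8872). ZAR1, a maternal factor of the egg-to-embryo transition, was at 3.11, 33.4 and 8.25 in VMAT, below all FR libraries at 115 to 252 (limma log2 fold change −3.83, SE 1.93, DESeq2 adjusted p = 0.0623). FIGLA, an oocyte transcription factor, was at 2.41 to 4.89 in 3 of 4 VIM libraries and at 0 in VMAT 1, and TLE6, of the maternal complex under the egg membrane, was at 3.54 or less in 6 libraries. Of 16 cumulus and granulosa markers listed only HAS2, a hyaluronan synthase, had a name, with 641 to 2144 normalized counts in VIM, 254 to 1755 in VMAT and 462 to 1239 in FR, and of 8 blood and stromal markers none had a name, so the share of such cells was not measured here.

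In most libraries most of the 26 genes were above 100 reads, and 2 of them separated fresh from VIM oocytes almost as an on and off pattern. TOMM70, an import receptor, was at 288 to 1201 reads in the 4 VIM libraries and at 4 to 10 reads in the 5 FR libraries. MRPL39, a protein of the large ribosomal subunit, showed the opposite, with 4 to 7 reads in VIM and 199 to 683 reads in FR. Across the whole table, 3 of 11425 genes had at most 30 reads in every FR library and above 100 in every VIM library, TOMM70 among them, and 2 genes had the reverse pattern, MRPL39 among them. MRPL30, also of the large subunit, was lower in each VIM library than in any FR library. The other 23 genes overlapped between VIM and FR.

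**Figure D1:**
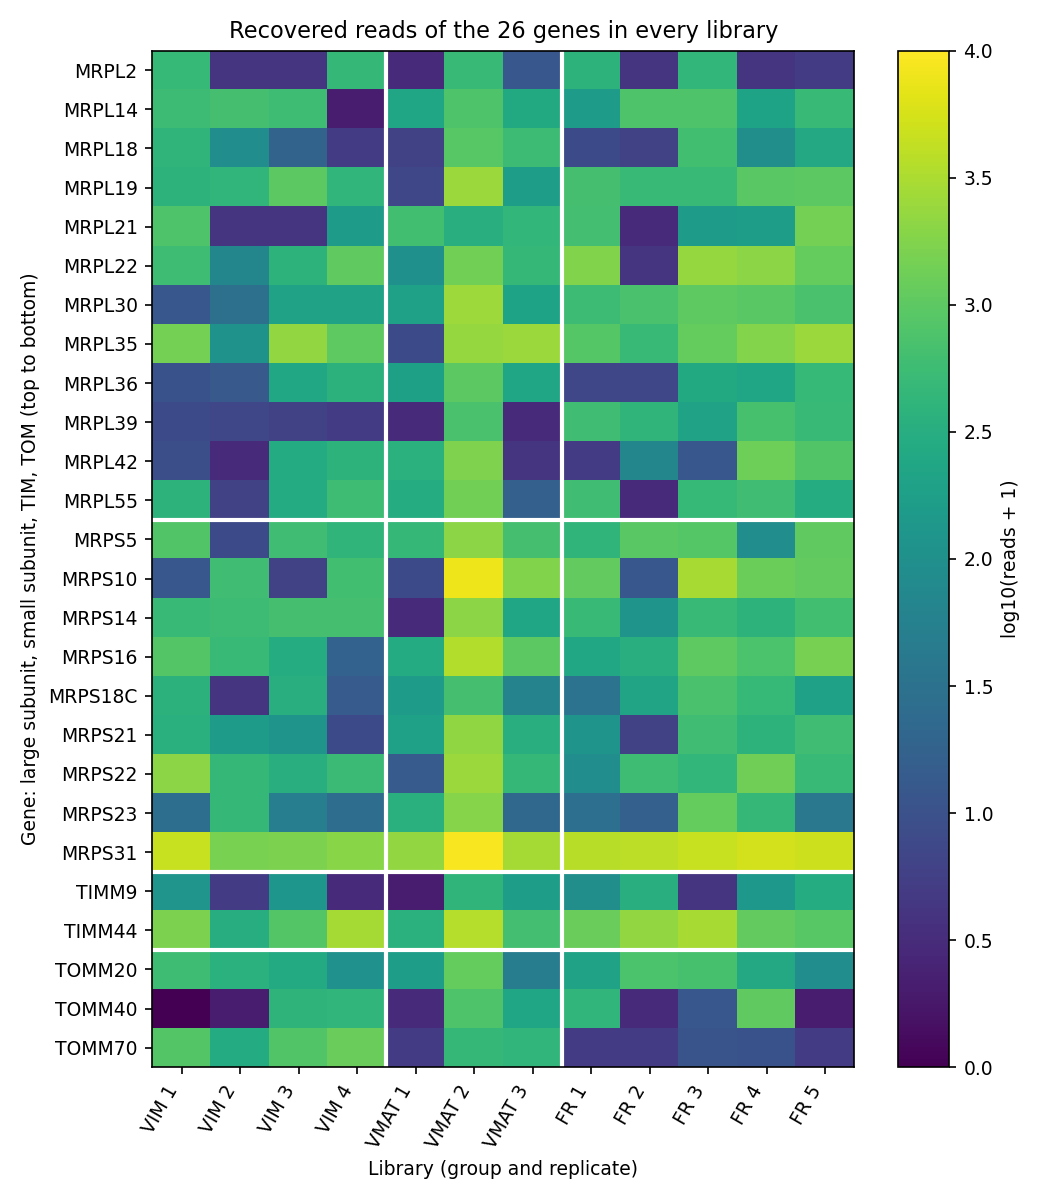
Recovered reads of the 26 genes (rows, grouped as large subunit, small subunit, TIM and TOM) in the 12 libraries (columns, grouped as VIM, VMAT and FR), coloured by log10(reads + 1). TOMM70 in the lowest row is bright in VIM and dark in FR, MRPL39 is dark in VIM and bright in FR, VMAT 2 is bright throughout, and dark cells of other genes are scattered over the groups.

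By the main test, limma on log2(normalized count + 1) over all genes detected, 0 of the 26 genes were differentially expressed (DE, adjusted p at most 0.05 and a log2 fold change of at least 1 in size) in any comparison. The same test called 0% of the 7351 genes tested between VIM and FR, 0% of the 8305 between VMAT and FR, and 0% of the 7627 between VIM and VMAT. All 26 genes passed the filter on low values in each. At an unadjusted p under 0.05 limma counted 3 of the 26 in VIM vs. FR (TOMM70, MRPL39 and MRPL30), against 3.78% of all genes tested and 5.02% of the named genes. It counted 1 in VMAT vs. FR (MRPL39), against 3.62% and 4.52%, and 1 in VIM vs. VMAT (TOMM70), against 2.98% and 3.89%.

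DESeq2 on the recovered reads called 2 of the 26 genes in VIM vs. FR, TOMM70 higher and MRPL39 lower, where 6.87% of all genes tested and 4.01% of the named genes were called (2.35% of all genes and 0.817% of the named genes higher, 4.52% and 3.19% lower in VIM). In VMAT vs. FR it called TOMM70 alone, where 4.26% of all genes tested and 2.18% of the named genes were called (2.17% of all genes and 0.701% of the named genes higher, 2.1% and 1.48% lower in VMAT). In VIM vs. VMAT it called 0, where 3.87% of all genes tested and 2.06% of the named genes were called (1.68% of all genes and 1.25% of the named genes higher, 2.19% and 0.817% lower in VIM). MRPL39 received no DESeq2 adjusted p in VIM vs. VMAT, so it was not assessed there. The quasi-likelihood test of edgeR on the same reads called 0 of the 26 in each comparison and 0, 1 and 1 genes over the whole table (0%, 0.012% and 0.0131%). At an unadjusted p under 0.05 edgeR counted 2 of the 26 between VIM and FR (16.8% of all genes tested and 4.4% of the named genes). It counted 0 between VMAT and FR (13.6% and 3.11%) and 0 between the vitrified groups (10.8% and 2.02%). The calls thus depended on the tool, and the DESeq2 calls among the 26 genes (7.69%, 3.85% and 0%) were near or below the share over all genes tested. Against the named genes (4.01%, 2.18% and 2.06%) they were higher in both comparisons with FR, resting on 2 genes and 1 gene, and lower in VIM vs. VMAT.

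Groups that did not overlap were counted as well. VIM and FR did not overlap for 3 of the 26 genes (TOMM70, MRPL39 and MRPL30), against 1.59% of all genes tested (0.952% with VIM higher, 0.639% with VIM lower) and 1.6% of the named genes (0.662% and 0.934%). VMAT and FR did not overlap for 2 genes, TOMM70 and MRPL39, against 3.19% of all genes tested (1.96% with VMAT higher, 1.23% with VMAT lower) and 3.04% of the named genes (0.623% and 2.41%). For MRPL39 this rested on the scaling factor of VMAT 2, whose reads of it exceeded those of every FR library. As a share of the reads of the library, MRPL39 in VMAT 2 was above FR 3. VIM and VMAT did not overlap for 2 others, MRPS14, higher in VIM, and MRPS21, lower in VIM, against 4.5% of all genes tested (1.72% with VIM higher, 2.78% with VIM lower) and 4.87% of the named genes (2.88% and 1.99%). For MRPS14 this also rested on the scaling factor of VMAT 2, which was above VIM 1 as a share of the reads of the library. With 4 against 5 libraries the smallest p that an exact permutation test allows is 0.0159 (126 splits), with 3 against 5 it is 0.0357 (56 splits), and with 4 against 3 it is 0.0571 (35 splits), so no gene could pass 0.05 in VIM vs. VMAT. Of the 78 two-sided exact permutation tests, 5 gave a p under 0.05, each at the smallest value possible, and these were the genes whose groups did not overlap in the comparisons with FR. TOMM70 and MRPL39 had already been called by the study on these same libraries, so their p-values are no independent support.

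Fold changes of the 26 genes lay on both sides of 0 in all comparisons. In VIM vs. FR, 16 of 26 (61.5%) had a log2 fold change below 0, against 59% of the named genes and 53.1% of all genes tested, and the median was −0.15, against −0.27 and −0.12. With single libraries left out this median ranged from −0.63 (without FR 2) to −0.062 (without VIM 2). In VMAT vs. FR, 15 of 26 (57.7%) lay below 0, against 59.6% and 49.7%, with a median of −0.18, against −0.31 for named genes and 0.01 for all genes. In VIM vs. VMAT, 17 of 26 (65.4%) were lower in VIM, against 49.2% and 52.2%, with a median of −0.94, against 0.02 and −0.08. That last median rested on single libraries, being −0.23 without VIM 2 and −0.22 without VMAT 1.

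**Figure D2:**
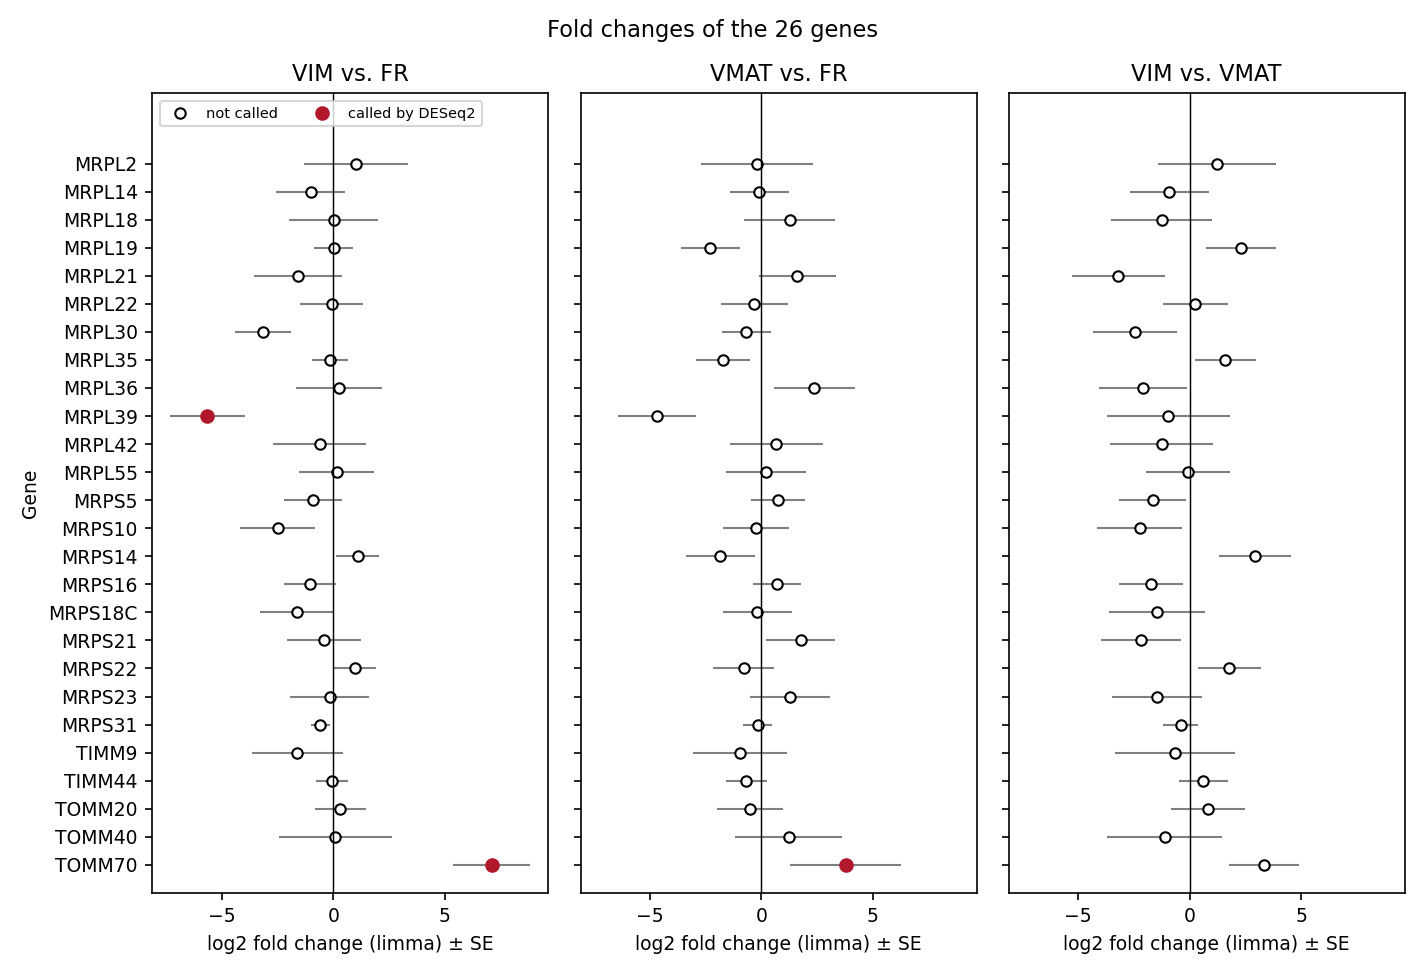
Log2 fold change ± moderated SE from limma (x axis) of the 26 genes (y axis) in the 3 comparisons, 1 per panel, with filled red points for genes called by DESeq2. TOMM70 at 7.11 and MRPL39 at −5.65 stand outside the other genes in VIM vs. FR, and no point is filled in VIM vs. VMAT.

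Within groups the reads of these genes fell into a low and a high class. Of the 312 values (26 genes in 12 libraries), 72 (23.1%) were at 30 reads or fewer, 13 (4.17%) between 31 and 100, and 227 (72.8%) above 100. Over the 3570 genes of the table with a mean at least as high as the lowest of the 26, the shares were 31.2%, 5.86% and 63%. In 23 of the 26 genes at least 1 library was in the low class, and low values were found in VIM (31 of 104), VMAT (16 of 78) and FR (25 of 130).

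**Figure D3:**
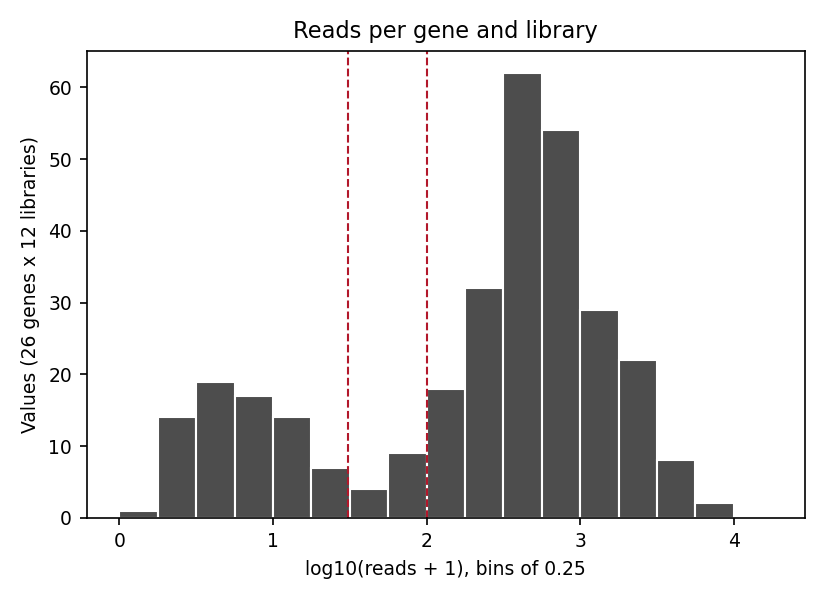
Number of values (y axis) by log10(reads + 1) (x axis, bins of 0.25) for the 26 genes in 12 libraries, with dashed lines at 30 and 100 reads. The 72 values at or below 30 reads form a separate low hump, with 13 values between the lines and 227 above.

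The number of the 26 genes above 100 reads differed between libraries, as did their depth. It was 19, 13, 20 and 18 in VIM 1 to 4, 15, 26 and 19 in VMAT 1 to 3, and 18, 14, 22, 22 and 21 in FR 1 to 5. The deepest library, VMAT 2, was the only one with all 26 genes above 100 reads, and the shallowest, VMAT 1, had 15. The part of depth in the low values was not tested. The within-group SD of these genes on the log2 scale had a median of 2.10, with 0.684 for MRPS31 as the smallest and 4.02 for TOMM40 as the largest, and it was 2.7 over the 3308 genes with a mean in the same range.

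**Figure D4:**
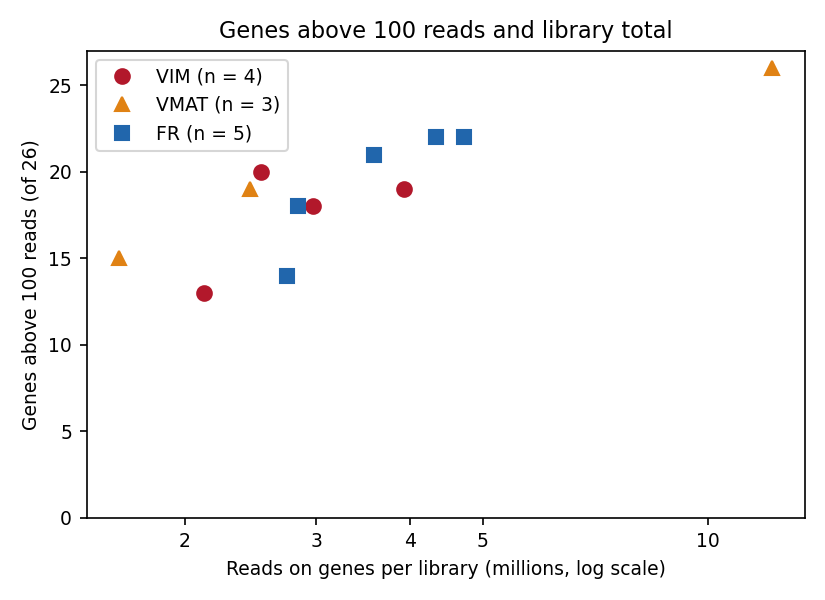
Number of the 26 genes above 100 reads (y axis) against reads on genes per library (x axis, log scale), with a symbol per library and a colour per group. VMAT 2 sits alone at the right with 26 genes, and the other 11 libraries lie between 13 and 22.

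Of the 3 TOM genes, TOMM70 (ENSECAG00000015142) encodes the receptor on the outer membrane that takes precursor proteins from cytosolic chaperones. Its normalized counts were 521, 469, 987 and 1174 in VIM, 12.4, 56.9 and 499 in VMAT, and 4.31, 4.58, 5.60, 4.54 and 2.86 in FR. Every VIM library was above every FR library, VMAT lay above FR as well, and VMAT 3 alone reached into the range of VIM. VIM averaged 788 ± 347 (SD, n = 4), against 4.38 ± 0.981 (SD, n = 5) for FR. The limma log2 fold change of TOMM70 was 7.11 (SE 1.74, adjusted p = 0.902) in VIM vs. FR, and DESeq2 gave 7.47 (SE 0.877, adjusted p = 7.77e-14). The SDs of TOMM70 on the log2 scale were 0.658 in VIM and 0.282 in FR, and the limma SE also draws on the spread of other genes. The exact permutation p of TOMM70 was 0.0159, the smallest the design allows, with higher values in 4 of 4 VIM libraries.

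In VMAT, TOMM70 was less even. The limma log2 fold change against FR was 3.78 (SE 2.48, adjusted p = 0.950), DESeq2 gave 5.48 (SE 1.41, adjusted p = 0.00576) and the exact permutation p was 0.0357, again the smallest possible. VMAT 1 held only 4 reads of TOMM70, as many as 3 of the FR libraries, and its higher normalized count of 12.4 rests on the small scaling factor of that library (0.321). Without VMAT 3 the DESeq2 call was lost, and the DESeq2 log2 fold change was 2.86. Between VIM and VMAT the log2 fold change of TOMM70 was 3.32 (SE 1.58) with a limma adjusted p of 0.967, and VMAT 3 overlapped VIM.

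**Figure D5:**
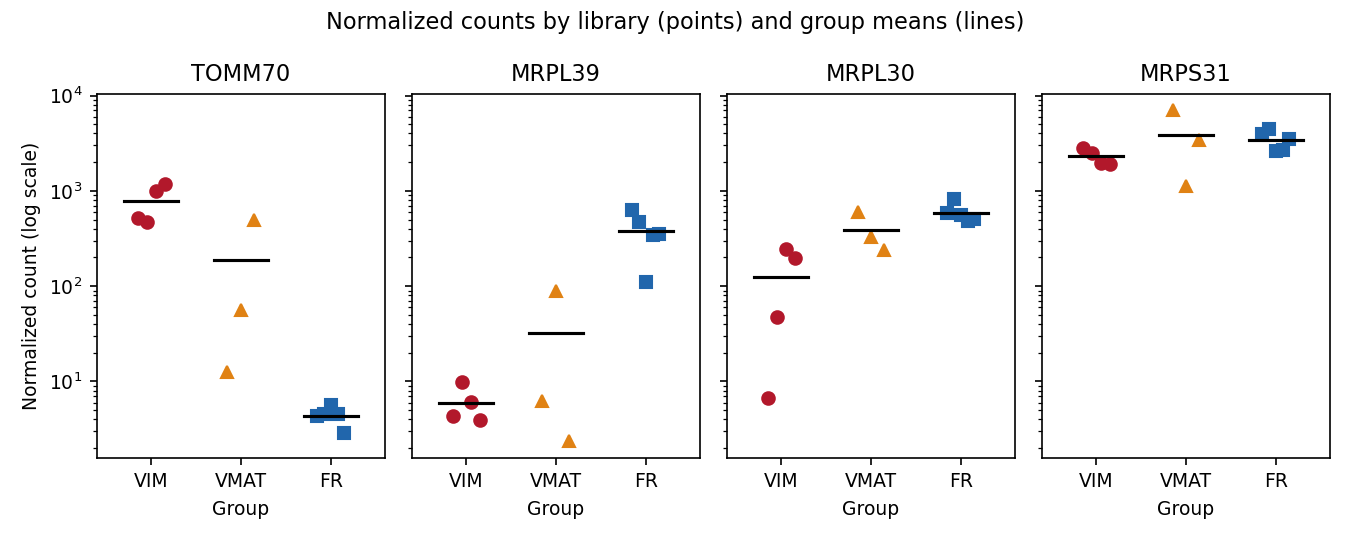
Normalized counts (y axis, log scale) of TOMM70, MRPL39, MRPL30 and MRPS31 in every library, with 1 point per library for VIM (n = 4), VMAT (n = 3) and FR (n = 5) and a line at each group mean. TOMM70 is high in VIM and at 2.86 to 5.60 in FR, MRPL39 is at 3.91 to 9.78 in VIM and 111 to 630 in FR, MRPL30 is lower in VIM than in FR, and MRPS31 stays above 1000 in all libraries.

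The other TOM genes did not follow TOMM70. TOMM20 (ENSECAG00000019640), the receptor that reads the presequences of imported proteins, had 347, 575, 333 and 101 normalized counts in VIM, 529, 140 and 55.4 in VMAT, and 220, 841, 388, 132 and 65.1 in FR. The 3 groups overlapped over most of their ranges, and the log2 fold change in VIM vs. FR was 0.32 (SE 1.16). TOMM40, the channel of the complex, was the most uneven of the 26 genes and is given for that reason, having been chosen after its values were seen. It was at 0, 1, 392 and 424 reads in VIM, 2, 793 and 235 in VMAT, and 432, 2, 11, 1059 and 1 in FR. Each group thus held libraries with 235 reads or more and libraries with 11 or fewer, so no difference in TOMM40 was detectable here.

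Both TIM genes overlapped between the groups. TIMM44 (ENSECAG00000011409), which anchors the import motor HSPA9 to the inner membrane channel, was above 100 reads in all 12 libraries, as were 4.77% of the genes in the table. Its normalized counts were 992, 513, 1033 and 2843 in VIM, 1114, 441 and 756 in VMAT, and 1308, 2538, 1675, 546 and 649 in FR. The log2 fold changes of TIMM44 were −0.05 (SE 0.71) in VIM vs. FR and −0.67 (SE 0.92) in VMAT vs. FR, both within 1 SE of 0. TIMM9 (ENSECAG00000017063), a small chaperone that carries hydrophobic precursors across the intermembrane space, had 120, 4, 126 and 2 reads in VIM, 1, 418 and 172 in VMAT, and 95, 331, 3, 137 and 295 in FR. Low libraries of TIMM9 were present in each group, and the log2 fold change was −1.62 (SE 2.05) in VIM vs. FR and −0.96 (SE 2.11) in VMAT vs. FR.

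In the large ribosomal subunit, MRPL39 (ENSECAG00000014964), a protein that bacterial ribosomes lack, differed most. Its normalized counts were 4.3, 9.78, 6.03 and 3.91 in VIM, 6.22, 88.8 and 2.36 in VMAT, and 630, 474, 111, 345 and 354 in FR. As normalized counts, all 7 vitrified libraries were below all 5 fresh libraries, with FR 3 the lowest of the fresh. For VMAT 2 this rests on its scaling factor of 7.98, since its 709 reads exceeded those of every FR library (199 to 683). As a share of the reads of the library, MRPL39 in VMAT 2 (709 of 12166950) was above FR 3 (199 of 4331042). On that scale VMAT and FR overlapped. VIM averaged 6.0 ± 2.68 (SD, n = 4), VMAT 32.5 ± 48.8 (SD, n = 3) and FR 383 ± 191 (SD, n = 5). In VIM vs. FR the limma log2 fold change of MRPL39 was −5.65 (SE 1.67, adjusted p = 0.902), DESeq2 gave −6.03 (SE 1.06, adjusted p = 8.55e-06), and the exact permutation p was 0.0159.

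In VMAT vs. FR the log2 fold change of MRPL39 was −4.69 (SE 1.75, limma adjusted p = 0.950), with an exact permutation p of 0.0357. DESeq2 gave −3.64 (SE 1.42, adjusted p = 0.105) and did not call it. VMAT 1 and VMAT 3 held 2 reads each of MRPL39 while VMAT 2 held 709, and without VMAT 2 the DESeq2 log2 fold change was −6.63 (adjusted p = 0.00118). Between VIM and VMAT the log2 fold change was −0.96 (SE 2.77), and its sign turned without VMAT 2 (0.44). The 2 comparisons with FR share the same 5 fresh libraries.

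MRPL30 (ENSECAG00000015993), the counterpart of bacterial ribosomal protein L30, had 11, 29, 202 and 204 reads in VIM, 191, 2587 and 205 in VMAT, and 542, 720, 1000, 950 and 708 in FR. As normalized counts these were 6.75, 47.3, 243 and 199 in VIM, 594, 324 and 242 in VMAT, and 479 to 824 in FR. VIM lay below FR in 4 of 4 libraries, with VIM 1 and VIM 2 far lower than VIM 3 and VIM 4. The log2 fold change of MRPL30 in VIM vs. FR was −3.15 (SE 1.25) with a limma adjusted p of 0.902, a DESeq2 adjusted p of 0.141 and an exact permutation p of 0.0159. In VMAT vs. FR it was −0.69 (SE 1.1), with VMAT 1 inside the fresh range and VMAT 2 and VMAT 3 below it.

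The remaining named genes of the large subunit overlapped between groups in all comparisons with FR. MRPL19 (ENSECAG00000011079), the counterpart of bacterial L19, had 232, 696, 1170 and 424 normalized counts in VIM, 18.7, 309 and 204 in VMAT, and 711, 587, 285, 481 and 707 in FR. VMAT was the low group, chiefly through the 6 reads of VMAT 1, and the log2 fold change of MRPL19 was −2.29 (SE 1.32, limma adjusted p = 0.950) in VMAT vs. FR and 2.31 (SE 1.58) in VIM vs. VMAT. MRPL35 (ENSECAG00000024527), the counterpart of bacterial L35, had 901, 181, 2698 and 982 normalized counts in VIM, 21.8, 290.3 and 2908 in VMAT, and 954, 574, 635, 913 and 1798 in FR. VMAT spanned both sides of the fresh range, and the log2 fold change of −1.74 (SE 1.22) changed sign to 0.19 in DESeq2 and to 0.040 without VMAT 1. MRPL21 (ENSECAG00000019258), the counterpart of bacterial L21, had 790, 3, 3 and 157 reads in VIM, 619, 325 and 441 in VMAT, and 630, 2, 162, 167 and 1478 in FR. Low libraries of MRPL21 occurred in VIM and FR and not in VMAT, and its log2 fold change between VIM and VMAT was −3.20 (SE 2.08, limma adjusted p = 0.967). Left-out libraries moved it from −4.73 (without VMAT 2) to −1.96 (without VMAT 1), and DESeq2 gave −0.78 without VMAT 1.

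The other 7 large subunit genes were MRPL2, MRPL14, MRPL18, MRPL22, MRPL36, MRPL42 and MRPL55, and each had, in 1 or more groups, libraries with at most 30 and libraries with above 100 reads. MRPL2, which belongs to the catalytic core of the subunit, was above 100 reads in 2 of 4 VIM, 1 of 3 VMAT and 2 of 5 FR libraries. MRPL14 was above 100 reads in 11 libraries and at 1 read in VIM 4. MRPL22, which lines the exit tunnel of the growing protein, was at 102 to 2335 reads outside VIM 2, with 68, and FR 2, with 3.

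In the small ribosomal subunit, MRPS31 (ENSECAG00000003600), a protein particular to mitochondrial ribosomes, was the steadiest of the 26 genes. Its normalized counts were 2787, 2518, 1944 and 1920 in VIM, 7036, 1135 and 3389 in VMAT, and 3962, 4501, 2595, 2680 and 3506 in FR. All libraries held at least 1545 reads of it, and the within-group SD of 0.684 was smaller than that of all but 2.21% of the genes in the same range of means. MRPS31 had the highest mean of the 26 genes and so marked the top of that range. The other genes in it had lower means, so MRPS31 was not compared with genes of its own level alone. VIM was lower on average, 2292 ± 430 (SD, n = 4) against 3449 ± 821 (SD, n = 5) in FR, but VIM 1 lay inside the fresh range. The log2 fold change of MRPS31 in VIM vs. FR was −0.57 (SE 0.44) with an exact permutation p of 0.0635.

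MRPS14 (ENSECAG00000011077), the counterpart of bacterial S14, had 309, 883, 801 and 639 normalized counts in VIM, 6.22, 255 and 270 in VMAT, and 557, 135, 286, 195 and 447 in FR. VIM did not overlap VMAT in normalized counts, although VIM 1 and VMAT 3 were close and VMAT 2 held 2040 reads against 504 to 665 in VIM. As a share of the reads of the library, MRPS14 in VMAT 2 (2040 of 12166950) was above VIM 1 (504 of 3930366). On that scale VIM and VMAT overlapped. The log2 fold change of MRPS14 in VIM vs. VMAT was 2.95 (SE 1.61, limma adjusted p = 0.967) with an exact permutation p of 0.0571. Without VMAT 1, which held 2 reads, it was 1.22. MRPS21 (ENSECAG00000009845), the counterpart of bacterial S21 and chosen after its values were seen, showed the opposite order, with 212, 259, 141 and 6.84 in VIM against 610, 272 and 382 in VMAT. Here VIM 2 and VMAT 2 differed by little, and the log2 fold change of MRPS21 was −2.17 (SE 1.79, limma adjusted p = 0.967).

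MRPS10 (ENSECAG00000015274), the counterpart of bacterial S10, was split inside each group, with 11, 592, 5 and 623 reads in VIM, 7, 7888 and 1722 in VMAT, and 1106, 11, 2951, 1277 and 1099 in FR. Low libraries made up 2 of 4 in VIM, 1 of 3 in VMAT and 1 of 5 in FR. Its log2 fold change of −2.49 (SE 1.68) in VIM vs. FR had a limma adjusted p of 0.902. It was −1.34 in edgeR and −1.10 in DESeq2, and −3.73 (without FR 2) to −1.35 (without VIM 3) in limma with single libraries left out. MRPS22 (ENSECAG00000013272), a mitochondria-specific protein of the subunit, had 1219, 747, 396 and 514 normalized counts in VIM, 40.5, 317 and 534 in VMAT, and 96.0, 665, 253, 692 and 369 in FR. The groups overlapped, and the log2 fold change of MRPS22 was 0.97 (SE 0.94) in VIM vs. FR and −0.80 (SE 1.36) in VMAT vs. FR. The other 4 genes, MRPS5, MRPS16, MRPS18C and MRPS23, overlapped between all groups, and MRPS23 was at 16 to 51 reads in 7 libraries.

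Other genes of import and of mitochondrial translation were taken from lists chosen with earlier results of these data known. They were read in the same fits, and limma called 0 of them in any comparison. Only genes with a name could enter, and genes with higher values in vitrified oocytes were less likely to have one. At an unadjusted p under 0.05 limma counted NOA1 and GUF1 between VIM and FR, where 3.78% of all genes tested and 5.02% of the named genes passed. It counted MTIF2 between VIM and VMAT, where 2.98% and 3.89% passed. Of the 22 listed partners of protein import and processing 7 had a name (GRPEL1, HSPA9, HSPD1, HSPE1, PMPCB, GFER and ROMO1), and DESeq2 called 1, HSPA9, lower in VIM vs. FR (4.52% of all genes tested and 3.19% of the named genes were), and 0 in the other comparisons. In VIM vs. VMAT, HSPA9 and, of the next list, GUF1 and NOA1 received no DESeq2 adjusted p. HSPA9, the chaperone of the import motor that TIMM44 anchors, had 0, 1, 2 and 0 reads in VIM, 1, 560 and 1 in VMAT, and 426, 1, 662, 111 and 2 in FR. FR itself was split for HSPA9, with 3 libraries above 100 reads and 2 at or below 2, which overlapped VIM (DESeq2 log2 fold change −7.55, adjusted p = 0.0039, limma −4.33, SE 2.26). The median limma log2 fold change of the 7 partners was −0.61 in VIM vs. FR, with 7 below 0, and 0.62 in VMAT vs. FR, with 2 below 0, where the named genes had −0.27 and −0.31. In DESeq2 GRPEL1 (0.95) and PMPCB (0.40) were above 0 in VIM vs. FR.

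Of 29 listed genes of mitochondrial translation and ribosome assembly 8 had a name, and DESeq2 called 2 of these lower in VIM vs. FR, NOA1 and GUF1, against the same 4.52% of all genes tested and 3.19% of the named genes. NOA1, a GTPase that acts in assembly of the mitochondrial ribosome, had 1, 5, 1 and 2 reads in VIM, 1, 524 and 1 in VMAT, and 436, 501, 3, 446 and 538 in FR. GUF1, a GTPase of mitochondrial translation, had 2, 0, 0 and 0 reads in VIM, 1, 6 and 1 in VMAT, and 381, 325, 2, 1 and 275 in FR. In both genes the vitrified libraries, with the exception of VMAT 2 for NOA1, were near 0 and the fresh libraries were divided. The limma log2 fold changes in VIM vs. FR were −5.53 (SE 2.17) for NOA1 and −5.02 (SE 2.27) for GUF1, each with a limma adjusted p of 0.902, and the DESeq2 adjusted p was 0.000331 and 0.00155. GUF1 was also called by DESeq2 in VMAT vs. FR (adjusted p = 0.011), where 2.1% of all genes tested and 1.48% of the named genes were called lower. The median limma log2 fold change of the 8 genes was −0.64 in VIM vs. FR, with 7 below 0. In VMAT vs. FR it was −1.84, with 5 below 0, where the named genes had −0.27 and −0.31. DESeq2 called 0 of the 3 named chaperones that dock on TOMM70, of 7 listed, and 0 of 1 for the ribosomal partners without the MRP prefix, of 5 listed.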

How the data were processed

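Oocyte pools were sequenced with the QIAseq UPX 3′ kit. Per the labels and the study's methods, the authors used Trim Galore, STAR, SAMtools, UMI-tools and RSEM on EquCab 3.0 with the annotation of Ensembl release 108, and deposited 1 table of signal values, which are counts divided by DESeq2 size factors, for 12 samples. Library steps gave whole reads for every value (tolerance 0.001). The main test was limma 3.58.1 with a trend on log2(value + 1), as the unit required, over genes above 0 in at least 4 (VIM vs. FR) or 3 samples. Fold changes of low genes are understated on this scale. DESeq2 1.42.0 and edgeR 4.0.16 on the recovered reads, other pseudocounts, filters and scalings, a replicate block and left-out libraries were the alternatives. Exact permutation tests compared group means of log2 values and were not adjusted over the 26 genes. Values in every sample are given for TOMM70 and MRPL39, for the 4 genes with the smallest limma p in each comparison, for genes called by DESeq2, and for the 2 of each class with the lowest spread. Members and lists were chosen with earlier results of these data known. Nothing in the labels pairs samples, and no 2 libraries of a group agreed within sampling noise (19 pairs). Genomic positions were not used here.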

Additional observations from a re-analysis of the deposited data

Results flagged for a closer look

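In 5 of 52 groups of 4 or 5 libraries (Dixon's test on the log2 scale), 1 library lay far from the others, each time below them. About 2.6 would be flagged by chance if the values were normally distributed and the genes independent. Values in a low and a high class do not meet this, so 5 cannot be judged against 2.6. MRPL22 in FR 2 was at 3.43 normalized counts (3 reads), against 805 to 1906 in the other FR libraries. MRPL55 in FR 2 was at 2.29 (2 reads), against 215 to 644. MRPS10 in FR 2 was at 12.6 (11 reads), against 644 to 1652. MRPS5 was at 11.4 (7 reads) in VIM 2, against 403 to 721, and at 46.4 (92 reads) in FR 4, against 442 to 1086. FR 2 accounted for 3 of the 5, and it was one of the libraries with 11 of the 26 genes at 30 reads or fewer.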

How the results depend on the processing

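With limma, 0 of the 26 genes were DE under other pseudocounts, filters, scalings and left-out libraries, except that without the trend TOMM70 was called in VIM vs. FR (1 gene, adjusted p = 0.0127). That fit called 3 of the 7351 genes tested. With DESeq2, 2 genes were called in VIM vs. FR and 2 to 2 when single libraries were left out. Over all genes tested the DESeq2 fit called 505 in VIM vs. FR, and 427 to 572 when single libraries were left out. In VMAT vs. FR it called 1, and 0 to 2 with single libraries left out, with 0 without VMAT 3 and 2 without VMAT 2. Same-numbered samples did not deviate together (correlations of −0.0305 to 0.0112 over 10 pairs). A replicate block gave 0 DE genes of the 26 with limma in each comparison. With DESeq2 the same block was added after seeing the data, as was leaving out libraries in DESeq2. It gave 2 in VIM vs. FR, where 410 of the 7351 genes tested were called, and 1, MRPL39 in place of TOMM70, in VMAT vs. FR. VIM vs. VMAT stayed at 0 under all 27 alternatives. Of 361 recomputed log2 fold changes of named genes, 316 kept their direction and side of the threshold, 33 kept their direction and were now called, and 12 changed sign. The sign changes were MRPL35 in VMAT vs. FR (edgeR 0.057, DESeq2 0.19, limma −3.46 to 0.040 with single libraries left out, the highest without VMAT 1, and DESeq2 −2.81 to 0.71, with 0.71 and 0.64 without VMAT 1 and VMAT 2, and 0.15, 0.027, 0.016, 0.15 and 0.50 without FR 1 to FR 5) and MRPL39 in VIM vs. VMAT without VMAT 2 (0.44 in a range of −1.93 to 0.44, and 0.59 in DESeq2 in a range of −2.83 to 0.59). The cause was not tested. The median in VMAT vs. FR ranged from −0.28 to 0.13. Depth limits genes at a few reads.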

Other observations

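The 26 genes took 0.449%, 0.313%, 0.462% and 0.457% of all reads in VIM 1 to 4, 0.383%, 0.444% and 0.558% in VMAT 1 to 3, and 0.508%, 0.455%, 0.567%, 0.467% and 0.601% in FR 1 to 5. Most FR libraries were above the 4 VIM libraries, with FR 2 inside the range of VIM, as were VMAT 1 and VMAT 2. Without MRPS31 the shares were 0.241% to 0.398% in VIM, 0.245% to 0.441% in VMAT and 0.312% to 0.464% in FR. These shares were not tested.

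MTIF2, an initiation factor of mitochondrial translation, had 887, 434, 329 and 148 reads in VIM, 1, 29 and 405 in VMAT, and 3, 572, 5, 1372 and 150 in FR. It was the only gene of its list with an unadjusted limma p under 0.05 in VIM vs. VMAT, with a log2 fold change of 4.21 (SE 2.0, limma adjusted p = 0.967), and DESeq2 gave 1.46 (adjusted p = 0.754).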
